A study of Mus musculus with 6 samples.

Results

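The 10 transcription factor genes described here form the neurogenic cascade of the embryonic cortex: Neurog1, Neurog2, Insm1, Eomes, Neurod1, Neurod4, Nhlh1, Nhlh2, Neurod2 and Neurod6. They were taken by symbol from the rows of the array that carry 1 gene symbol, and all 10 were found among the 22180 genes with such a row. Each had 1 such row, and all 10 were among the 16724 genes bright enough to be tested. The material was dissected cortex of mouse embryos at E12.5, 1 array of total RNA per embryo. There were 3 DKO (double knock-out) embryos, homozygous for loxP-flanked Lats1 and Lats2 and carrying a Nestin-Cre transgene, and 3 embryos labelled control, whose alleles the labels do not give. Nestin-Cre acts in neural progenitors and is inherited by the cells they make, so other cells of the dissected tissue, such as vessels and meninges, are not its main target.

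Excitatory neurons of the cortex arise from apical progenitors, either directly or through intermediate progenitors. Neurog1 and Neurog2 are proneural basic helix-loop-helix (bHLH) factors: they pair with E proteins, bind DNA at E-boxes and switch on the genes that commit a progenitor to become a neuron. Insm1 and Eomes act in the intermediate progenitors, Neurod1, Neurod4, Nhlh1 and Nhlh2 accompany the passage from progenitor to young neuron, and Neurod2 and Neurod6 are bHLH factors of the postmitotic excitatory neuron. Notch signalling holds the cascade back through Hes and Hey repressors, and Id proteins do so by sequestering E proteins. Lats1 and Lats2 are the Hippo kinases that restrain the transcriptional coactivators YAP and TAZ.

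Of the targeted genes, Lats1 fell, with 7.74 to 7.82 in DKO arrays against 8.34 to 8.98 in control arrays (log2 intensity, log2 fold change as DKO minus control -0.91 ± 0.14 SE, limma adjusted p = 0.0189). That call was lost without DKO 1 (adjusted p 0.0875), DKO 3 (0.0811), control 1 (0.0809) or control 3 (0.0571). Lats2 stood at 0.24 ± 0.10 (SE) on the same scale with an adjusted p of 0.285, and whether its row lies in the deleted part was not tested. The levels of Xist and of the Y-linked Kdm5d marked DKO 3, control 1 and control 3 as female and DKO 1, DKO 2 and control 2 as male, so sex was not balanced between the groups. Cortical markers were present on every array, among them Emx2 at 8.92 to 9.03 in DKO and 9.14 to 9.20 in control arrays. Dlx2, a marker of the ventral telencephalon, was also bright, at 7.97 to 8.26 in DKO arrays and 8.28 to 9.08 in control arrays.

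Most genes of the cascade had lower means in DKO cortex, and none passed the test over all genes. Of the 10 genes 9 had a lower mean in DKO, against 60.2% of all genes tested, and the exception was Nhlh2. In 8 of the 10, every DKO array lay below every control array, which was so for 13.4% of all genes tested, and in 0 did every DKO array lie above, against 8.22% of all genes. The median log2 fold change of the 10 was -0.39, and the median over all genes tested was -0.03. By limma, 0 of the 10 fell and 0 rose at an adjusted p under 0.05, against 0.359% (fell) and 1.36% (rose) of all genes tested. At an unadjusted p under 0.05, 9 of the 10 were lower, against 9.18% of all genes. The 10 genes were chosen with earlier results of these data known. Several of them, such as Neurog1, Eomes and Neurod6, also varied together across the same arrays. The counts set against all genes are therefore descriptive, since the 10 are not independent observations, and the set as a whole was not tested. With a variance that follows the signal level (limma's trend) Neurog1 and Nhlh1 did fall, at adjusted p of 0.0334 and 0.0227, and they did so too with a stricter filter on dim genes (0.0421 and 0.0347). The share of all genes that fell depended on single arrays: the 60 calls became 14 without DKO 1, 14 without DKO 3, 11 without control 1 and 13 without control 3. In bulk tissue, fewer cells that express these genes and less RNA of them per cell cannot be told apart.

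**Figure D1:**
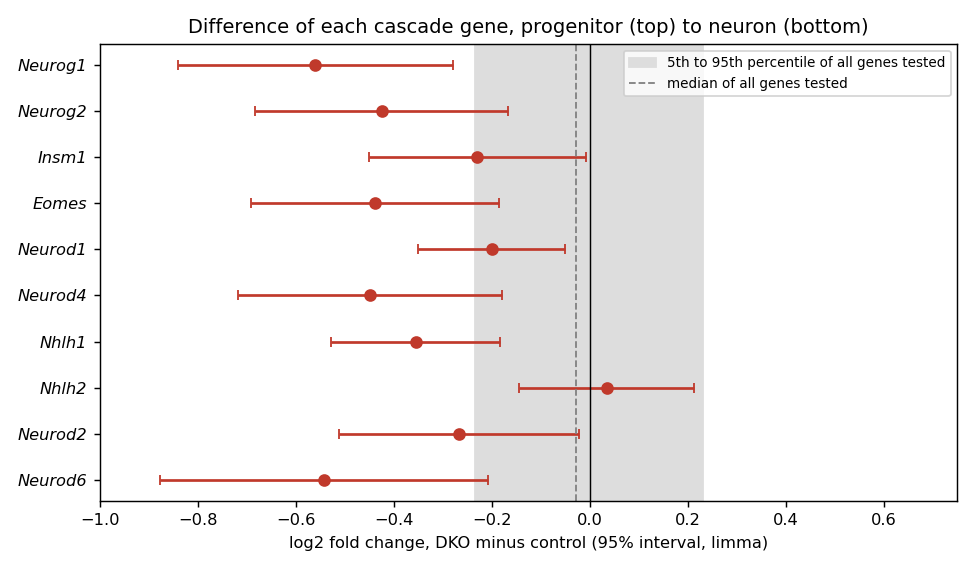
Log2 fold change (x axis, DKO minus control) of each cascade gene, from the progenitor genes at the top to the neuronal genes at the bottom. Points are limma estimates from 3 DKO and 3 control arrays, bars are 95% intervals, the grey band spans the 5th to 95th percentile of all genes tested, and the dashed line is their median. The estimates of 9 genes lie left of zero, and that of Nhlh2 lies at 0.03.

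The proneural pair stood at the head of the order. Neurog1, which starts the neuronal programme in cortical and sensory progenitors, measured 7.18, 7.52 and 7.47 in the DKO arrays and 7.96, 7.74 and 8.16 in the control arrays. Its difference of -0.56 ± 0.12 (SE) on the log2 scale was the most negative of the 10 and ranked 24 of 16724 genes from the most negative end, with an adjusted p of 0.0694. This is 67.8% of the control signal, with a 95% interval of 0.558 to 0.823 as a ratio, and the groups were separated by a gap of 0.22. Neurog2, the main proneural factor of the dorsal cortex, measured 9.61, 9.998 and 9.99 in the DKO arrays against 10.35, 10.17 and 10.36 in the control arrays. Its DKO arrays also lay wholly below the controls, DKO 1 being the lowest by far. Its difference was -0.43 ± 0.11 (SE) on the log2 scale, with an adjusted p of 0.120.

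Both genes of the intermediate progenitor had lower means, Eomes by more than Insm1. Eomes, the T-box factor also called Tbr2 that marks intermediate progenitors, measured 8.40, 8.64 and 8.65 in the DKO arrays against 8.99, 8.82 and 9.21 in the control arrays. The groups did not overlap, and the highest DKO array was 0.17 below the lowest control array. The difference was -0.44 ± 0.11 (SE) on the log2 scale with an adjusted p of 0.103, or 73.8% of the control signal. Insm1, a zinc finger factor that promotes the formation of intermediate progenitors, measured 7.34, 7.64 and 7.66 in the DKO arrays and 7.69, 7.78 and 7.86 in the control arrays. The Insm1 groups were apart by only 0.03, and DKO 1 set much of the difference of -0.23 ± 0.10 (SE, adjusted p 0.303): without DKO 1 it was -0.13.

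The genes of the passage to the young neuron differed among themselves. Neurod4, a bHLH factor of newborn neurons, measured 6.45, 6.80 and 6.39 in the DKO arrays and 6.96, 6.87 and 7.15 in the control arrays. DKO 2 lay close to the controls and the other DKO arrays far below them, and the difference was -0.45 ± 0.12 (SE, adjusted p 0.116). Without DKO 2 Neurod4 fell by 0.58 on the log2 scale with an adjusted p of 0.0261, the only cascade call in the fits that left out 1 array.

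Nhlh1, a bHLH factor switched on as cells leave the cycle, had the smallest adjusted p of the 10, at 0.0622. It measured 8.70, 8.68 and 8.86 in the DKO arrays against 9.02, 9.11 and 9.18 in the control arrays. The difference of -0.36 ± 0.08 (SE) was moderate, but the arrays of each group lay within 0.18 of each other. Its paralogue Nhlh2 did not share the difference, with 9.04, 9.15 and 8.91 in the DKO arrays and 9.03, 9.04 and 8.92 in the control arrays. The groups overlapped fully and the difference was 0.03 ± 0.08 (SE, 95% interval -0.14 to 0.21, adjusted p 0.872). The interval of Nhlh2 therefore leaves out a decrease of the size seen in Nhlh1, while the difference between the paralogues was not tested. The estimate of Nhlh2 turned to -0.0245 without DKO 2 and to -0.0032 without control 3.

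The bases around the start of these genes are shown because bHLH members bind E-boxes and several members lie downstream of others. RefSeq promoter windows of build GRCm38.p6, running from 250 bases before to 50 bases after a start, matched 9 of the 10 members (not Insm1) in 10 windows, Neurod4 having 2. The general E-box, CANNTG, was searched on both strands, as were 2 of its forms, CAGATG and CAGCTG, and the TEAD-type letters GGAATG, TEAD factors being the DNA-binding partners of YAP and TAZ. CANNTG occurred in 7 of the 10 windows and in 72.3% of all 32851 promoter windows. CAGATG, the form often bound by Neurog and Neurod factors, occurred in 3 of the 10 windows and in 17.2% of all windows, CAGCTG in 2 and in 16.3%, and GGAATG in 0 and in 14.7%. The 3 windows with CAGATG were those of Nhlh1, Nhlh2 and Neurod2, and they follow together with that of Neurog1, the gene with the most negative difference, with every CANNTG in capitals.
Neurog1, chr13:56252131-56252430, strand -: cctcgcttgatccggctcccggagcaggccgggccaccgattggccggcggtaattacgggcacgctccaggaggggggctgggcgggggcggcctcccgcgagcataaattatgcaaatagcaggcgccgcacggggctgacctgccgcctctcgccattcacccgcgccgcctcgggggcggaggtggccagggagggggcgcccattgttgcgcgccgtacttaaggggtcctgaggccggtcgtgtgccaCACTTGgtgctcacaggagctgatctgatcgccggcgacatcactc
Nhlh1, chr1:172057547-172057846, strand -: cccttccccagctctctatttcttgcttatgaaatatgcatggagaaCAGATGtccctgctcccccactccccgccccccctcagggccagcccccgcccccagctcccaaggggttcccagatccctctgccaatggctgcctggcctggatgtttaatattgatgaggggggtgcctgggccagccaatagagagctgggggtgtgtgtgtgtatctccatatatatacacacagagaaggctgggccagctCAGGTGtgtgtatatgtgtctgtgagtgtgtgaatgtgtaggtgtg
Nhlh2, chr3:102009895-102010194, strand +: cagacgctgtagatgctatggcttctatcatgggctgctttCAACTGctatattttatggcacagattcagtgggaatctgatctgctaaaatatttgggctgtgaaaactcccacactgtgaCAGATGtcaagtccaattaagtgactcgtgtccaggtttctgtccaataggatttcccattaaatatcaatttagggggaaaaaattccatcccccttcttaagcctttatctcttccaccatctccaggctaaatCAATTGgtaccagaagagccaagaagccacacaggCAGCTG
Neurod2, chr11:98329596-98329895, strand -: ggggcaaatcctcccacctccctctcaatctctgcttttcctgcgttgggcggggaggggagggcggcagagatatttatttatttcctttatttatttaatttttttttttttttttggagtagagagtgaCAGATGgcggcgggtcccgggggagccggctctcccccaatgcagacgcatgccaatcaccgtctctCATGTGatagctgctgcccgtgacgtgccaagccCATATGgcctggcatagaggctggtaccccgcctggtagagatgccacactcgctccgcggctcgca
Nhlh1 and Nhlh2 both carry CAGATG in the window, once each, and their differences in DKO were -0.36 and 0.03. Any part of these letters in the differences was not tested. A match of these letters is a description of the sequence and not a binding site.

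Neurod1, which follows Eomes in the passage from intermediate progenitor to neuron, was the dimmest member row, at 5.92, 5.98 and 5.88 in the DKO arrays against 6.05, 6.15 and 6.18 in the control arrays. The groups were apart by 0.07 and the difference was -0.20 ± 0.07 (SE, adjusted p 0.193). No detection call was at hand, so it was not tested whether a row this dim is compressed by background. A brighter row that carries the symbols Neurod1 and Cerkl together had a difference of -0.36, which cannot be assigned to either gene.

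**Figure D2:**
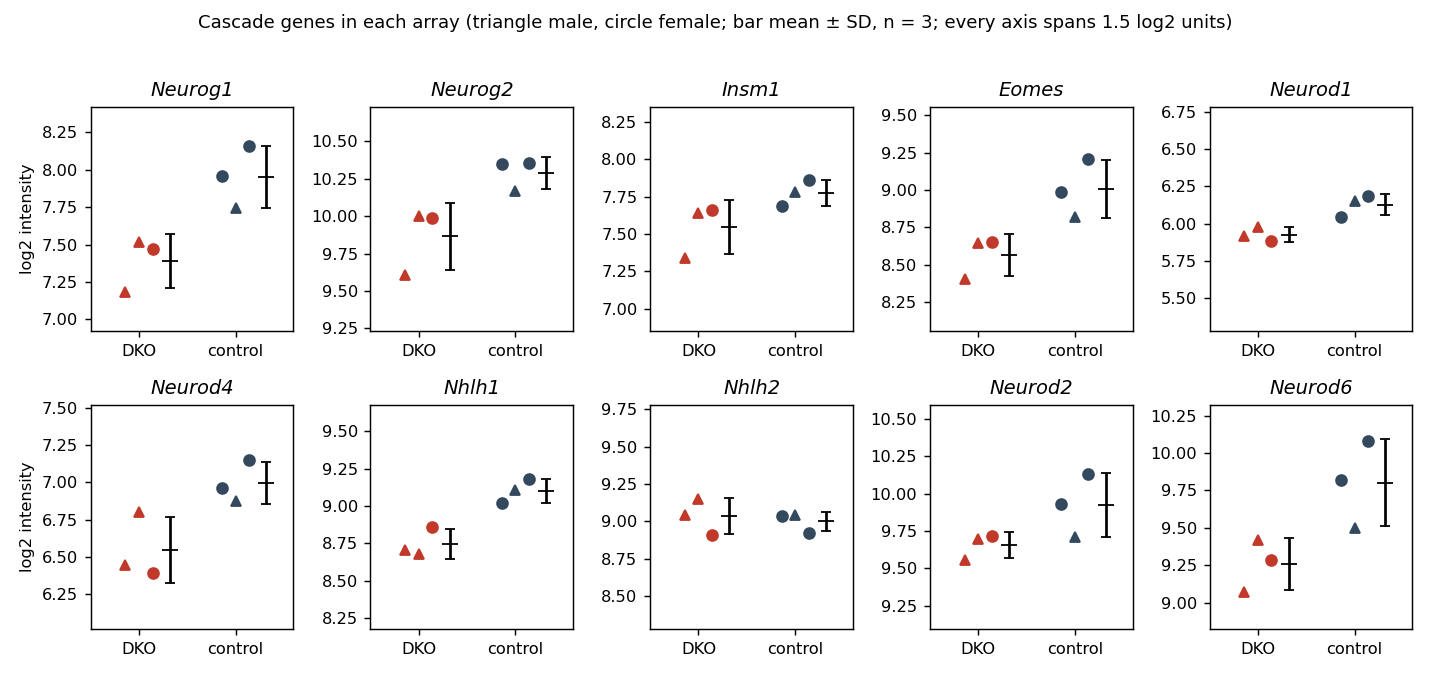
Log2 intensity (y axis) of each cascade gene in every array, with DKO left of control in each panel. Triangles are male and circles female embryos, and the bar beside each group is the mean ± SD (n = 3). In 8 panels all DKO points lie below all control points; the groups overlap for Nhlh2 and Neurod2.

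At the neuronal end, both genes had lower means, with wide spread between the control embryos. Neurod6, a bHLH factor of postmitotic excitatory neurons, measured 9.07, 9.42 and 9.29 in the DKO arrays and 9.82, 9.50 and 10.08 in the control arrays. Control 2 stood only 0.08 above the highest DKO array, whereas control 3 stood well above all other arrays. The difference of -0.54 ± 0.15 (SE, adjusted p 0.124) was the second most negative of the 10, and its control SD of 0.29 was the widest. Neurod2, which acts with Neurod6 in the maturing neuron, measured 9.56, 9.70 and 9.72 in the DKO arrays and 9.93, 9.71 and 10.13 in the control arrays. Control 2 lay within the DKO range, so the Neurod2 groups overlapped, and the difference was -0.27 ± 0.11 (SE, adjusted p 0.282). Without control 3 it was -0.16, and within sex it was -0.32 among females and -0.08 among males.

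The size of the difference did not follow the order of the cascade step by step. The mean log2 fold change was -0.49 over Neurog1 and Neurog2, -0.33 over Insm1 and Eomes, -0.24 over Neurod1, Neurod4, Nhlh1 and Nhlh2, and -0.40 over Neurod2 and Neurod6. These means rest on 2 to 4 genes each, and the differences between them were not tested. The -0.24 averages values from -0.45 to 0.03, and takes in Nhlh2 and the dim row of Neurod1.

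Single embryos stood high or low for many of the genes. Control 3 was the highest control array for 9 of the 10 genes and control 2 the lowest for 6. DKO 1 was the lowest DKO array for 6 of the 10 and the highest for 0, while DKO 2 was the highest for 6 and DKO 3 for 4. Over the 6 arrays the Pearson correlation with Eomes was 0.996 for Neurog1, 0.987 for Neurod6, 0.96 for Neurod2 and 0.95 for Neurog2, and it was -0.38 for Nhlh2. With each group's mean removed it was 0.99 for Neurog1, 0.96 for Neurod6, 0.97 for Neurod2, 0.82 for Neurog2, 0.72 for Insm1, 0.61 for Neurod4 and 0.44 for Nhlh1, but 0.25 for Neurod1 and -0.39 for Nhlh2. These values describe 6 arrays that share their normalization and their RNA between genes. Among all 16724 genes tested, the 5 most like Eomes by Pearson correlation over the 6 arrays were Wdr81, Neurog1, Tcaf1, Gli2 and 2610042L04Rik, with correlations of 0.993 to 0.998. Of these Wdr81, Tcaf1, Gli2 and 2610042L04Rik had small log2 fold changes of -0.18, -0.06, -0.17 and -0.13. It is the shape of their profile across arrays, and not the size of their difference, that resembled Eomes.

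Sex and tissue markers varied with the same arrays. Among female embryos, DKO 3 minus the mean of control 1 and control 3 was below zero for all 10 genes, with a median of -0.34. Among males, the mean of DKO 1 and DKO 2 minus control 2 was below zero for 9 of the 10, with a median of -0.27, and 54.8% of all genes were lower among females and 54.9% among males. Within sex the difference of Neurog1 was -0.59 among females and -0.39 among males, that of Eomes -0.45 and -0.30, and that of Neurod6 -0.67 and -0.26. With sex as a covariate the differences were -0.49 ± 0.11 (SE, adjusted p 0.123) for Neurog1, -0.37 ± 0.10 (adjusted p 0.174) for Eomes and -0.46 ± 0.14 (adjusted p 0.217) for Neurod6, and 0 of the 10 passed.

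Of 10 ventral telencephalon markers tested, 0 rose and 0 fell by limma, 3 had an unadjusted p under 0.05 and all 10 had lower means in DKO (median -0.20). Over all genes tested, 9.18% were lower at that unadjusted p and 60.2% had lower means. The mean log2 level of the 11 measured ventral markers was 6.50 to 6.70 in DKO arrays and 6.64 to 6.98 in control arrays, highest in control 2 and lowest among the controls in control 3, the reverse of most cascade genes. Among the DKO arrays the ventral mean was highest in DKO 2, as was the cascade mean. Midline markers (cortical hem and choroid plexus, which border the cortex dorsally) had mostly higher means in DKO. Of 15 tested, 3 rose (1.36% of all genes did) and 0 fell, with a median of 0.39. The 3 were Lmx1a, a roof plate transcription factor, at 0.47 ± 0.06 (SE), Ttr, the thyroid hormone carrier of the choroid plexus, at 2.24 ± 0.41 (SE), and Bmp6 at 0.63 ± 0.12 (SE). Without control 1 none of the 3 passed, at adjusted p of 0.0583 for Lmx1a, 0.132 for Ttr and 0.147 for Bmp6. Without DKO 1 they stood at 0.0508, 0.106 and 0.0819, and without control 3 at 0.0540, 0.141 and 0.141. Ttr and Bmp6 were also lost without control 2 (adjusted p 0.0749 and 0.0782), and Bmp6 without DKO 3 (0.118). With sex as a covariate Lmx1a passed (0.0274), while Ttr (0.0502) and Bmp6 (0.0992) did not. The mean log2 level of the 16 measured hem and choroid plexus markers was 6.31 to 6.61 in DKO arrays and 5.96 to 6.17 in control arrays. The part of the ventral and midline markers in the cascade's difference was not tested.

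**Figure D3:**
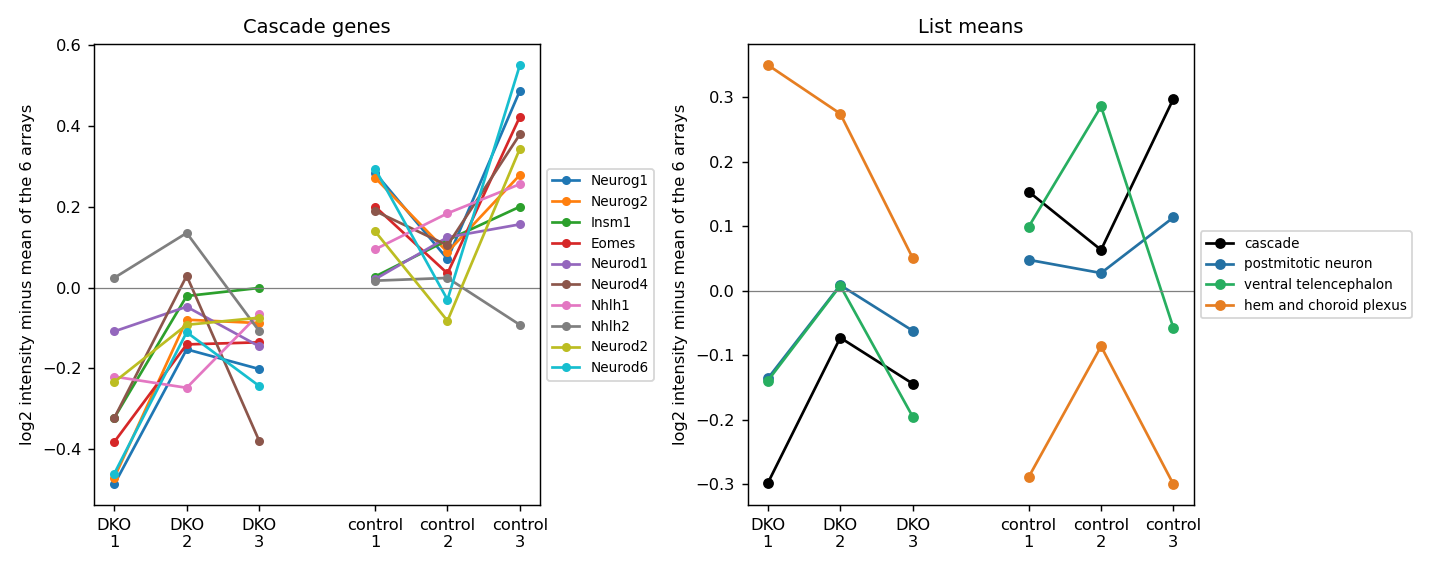
Left, log2 intensity of each cascade gene minus its mean over the 6 arrays; right, the same for the mean of the cascade genes and of 3 marker lists. Lines join the arrays of a group only so that a gene or list can be followed, since the embryos have no order. Control 3 is high and DKO 1 low for most cascade genes, control 2 is highest for the ventral markers, and every DKO array lies above every control array for the hem and choroid plexus markers.

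Genes of the wider neurogenic programme, listed with earlier results of these data known, also had lower means in DKO. The list holds genes induced in committed progenitors and young neurons, several of them known targets of the proneural factors. Of 19 tested, 4 fell (0.359% of all genes did), 0 rose and 15 did not pass. All 19 had lower means, against 60.2% of all genes, and 16 had every DKO array below every control array, against 13.4%, with a median of -0.33. Because of how the list was chosen, these counts are descriptive, and the list as a whole was not tested. Mfng, a glycosyltransferase that modifies Notch receptors, measured 8.64, 8.63 and 8.67 in the DKO arrays against 9.07, 9.07 and 9.15 in the control arrays. These 3 DKO values were close together and far from the controls, and Mfng fell by 0.45 ± 0.06 (SE) on the log2 scale (adjusted p 0.00726). Its call held whichever of the 6 arrays was left out.

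Gadd45g, a growth arrest gene of newborn neurons, fell by 0.53 ± 0.09 (SE, adjusted p 0.0238), and Hes6, which opposes Hes1, fell by 0.33 ± 0.06 (SE, adjusted p 0.0336). The fourth call, Btg2, an antiproliferative gene of neurogenic divisions that was named after its value was seen, fell by 0.41 ± 0.08 (SE, adjusted p 0.0385). Gadd45g lost its call without DKO 1 (0.0974), DKO 3 (0.0730), control 1 (0.0902) or control 3 (0.0787), and without any 1 of the 6 arrays Hes6 (adjusted p 0.0769 to 0.135) and Btg2 (0.0530 to 0.149) did not pass. With sex as a covariate Mfng stood at an adjusted p of 0.0275, Gadd45g at 0.0523, Hes6 at 0.0773 and Btg2 at 0.0767.

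Repressors upstream of the cascade did not shift together. Of 10 tested Hes, Hey and Id genes and Rest, 2 fell (0.359% of all genes did), 0 rose and 8 did not pass. Their median was -0.03. Hes5, a Notch-induced repressor of proneural genes, measured 9.03, 9.35 and 9.21 in the DKO arrays and 10.17, 10.10 and 10.01 in the control arrays, and fell by 0.90 ± 0.09 (SE, adjusted p 0.00197). Hey1, a related Notch effector, measured 9.98, 9.95 and 9.99 in the DKO arrays against 10.42, 10.37 and 10.49 in the control arrays, and fell by 0.45 ± 0.06 (SE, adjusted p 0.00820). Both calls held whichever of the 6 arrays was left out. Hes1, the other main Notch-induced repressor of cortical progenitors, pointed the opposite way without passing: it measured 9.05, 8.71 and 8.94 in the DKO arrays against 8.44, 8.51 and 8.65 in the control arrays, a difference of 0.37 ± 0.10 (SE, adjusted p 0.121). Hes5 and Hes1, both known to repress Neurog2, thus had means on opposite sides of control in the same DKO arrays.

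The DNA-binding partners and alternatives of the members gave no call. Of the 3 E proteins tested, 0 passed by limma and 1 was lower at an unadjusted p under 0.05 (9.18% of all genes were). Tcf4, the E protein abundant in cortex, measured 10.79, 10.79 and 10.78 in the DKO arrays and 11.09, 10.95 and 11.27 in the control arrays (log2 fold change -0.32 ± 0.08 SE, adjusted p 0.115), while Tcf3 and Tcf12 had -0.09 and -0.04. Of 6 other neural bHLH activators tested 0 passed and 1 was lower at an unadjusted p under 0.05, against 9.18% of all genes. Their median was -0.13. Among these Olig2, a bHLH factor of ventral progenitors, had -0.31 ± 0.15 (SE, adjusted p 0.376), with control 2 at 7.09 above all other arrays.

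The cells before and after the cascade were set beside it. Of 16 apical progenitor genes tested 2 rose (1.36% of all genes did) and 0 fell, with a median of -0.02. At an unadjusted p under 0.05 there were 4 higher and 5 lower, against 1069 and 1535 of the 16724 genes tested. The 2 that rose were Hmga2, a chromatin protein of early progenitors, at 0.51 ± 0.09 (SE, adjusted p 0.0373), and Slc1a3, a glutamate transporter of radial glia, at 0.40 ± 0.08 (SE, adjusted p 0.0397). Hmga2 lost its call without DKO 1 (0.124), DKO 3 (0.118), control 1 (0.147) or control 3 (0.141), and Slc1a3 did not pass without any 1 of the 6 arrays (0.0684 to 0.147). With sex as a covariate Hmga2 stood at 0.0913 and Slc1a3 at 0.0992. The 5 lower genes, named after their values were seen, were Sox9 (log2 fold change -0.31, adjusted p 0.0581), Emx1 (-0.30), Sox1 (-0.23), Emx2 (-0.18) and Lhx2 (-0.17), transcription factors of neural and cortical progenitors that did not pass over all genes. The other higher genes were Vim (0.32, adjusted p 0.0573) and Nes (0.24, adjusted p 0.114), which did not pass either. Of 9 proliferation genes tested 0 passed and 0 had an unadjusted p under 0.05, with a median of -0.03, and Mki67, the proliferation antigen, stood at -0.12 ± 0.06 (SE) with an adjusted p of 0.438.

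Of 19 postmitotic neuron genes tested 1 rose (1.36% of all genes did) and 0 fell. Lower means were seen for 17, against 60.2% of all genes, and the median was -0.18. At an unadjusted p under 0.05 by limma 9 were lower and 1 higher, against 1535 and 1069 of the 16724 genes tested. In 9 every DKO array lay below every control array (13.4% of all genes), and in 1 every DKO array lay above (8.22%). The call was Stmn4, a stathmin of neurons, at 0.61 ± 0.09 (SE, adjusted p 0.0146), opposite in direction to most of the list. It was lost without control 3 (0.0660). Elavl3, an RNA-binding protein of young neurons, had -0.31 ± 0.08 (SE, adjusted p 0.115) and Bcl11b, a factor of deep-layer neurons, -0.29 ± 0.09 (SE, adjusted p 0.155). Of 6 Cajal-Retzius markers tested 0 passed and 0 had an unadjusted p under 0.05, with a median of 0.03, and Reln, the secreted protein that defines these early neurons, had -0.15 ± 0.07 (SE, adjusted p 0.373). Of 11 endothelial markers 0 passed and 3 were lower at an unadjusted p under 0.05 (9.18% of all genes were). All 11 had lower means, against 60.2% of all genes, and the median was -0.18. Of 5 meningeal markers tested 0 passed, 0 had an unadjusted p under 0.05 and the median was -0.15.

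**Figure D4:**
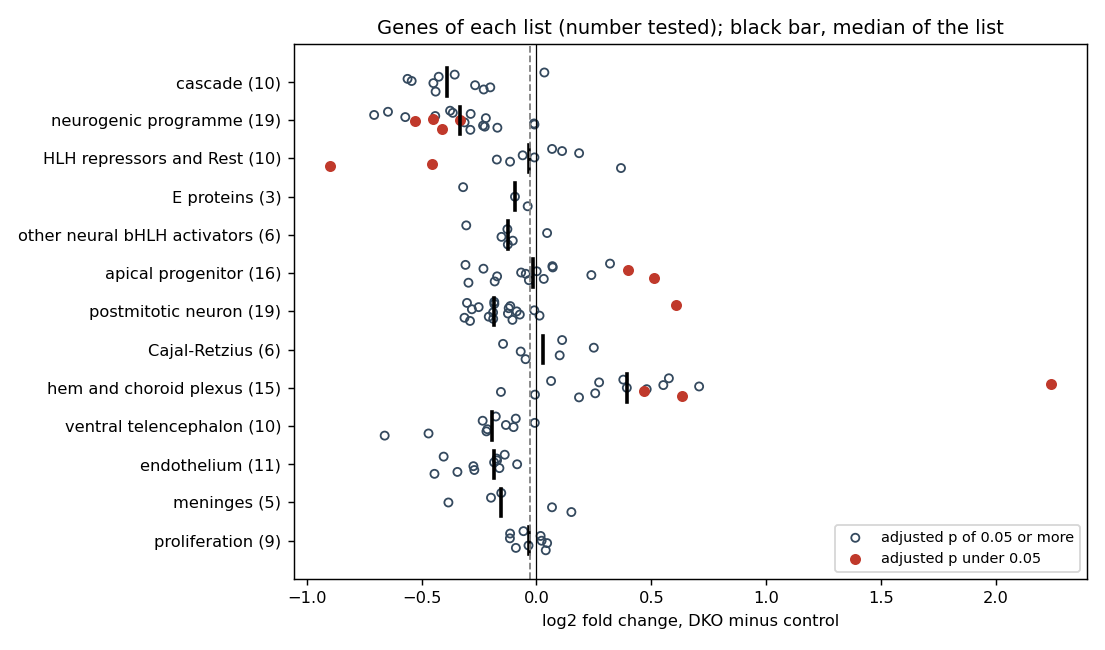
Log2 fold change (x axis, DKO minus control) of every tested gene of the cascade and of 12 other lists, with filled points at an adjusted p under 0.05 by limma over all genes and a black bar at the median of each list. The cascade median of -0.39 and the neurogenic programme median of -0.33 lie left of the medians of the other lists, and the hem and choroid plexus median of 0.39 lies to the right.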

How the data were processed

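Total RNA of 6 embryonic cortices was hybridised to Affymetrix whole-transcript arrays, per the labels' protocols. The deposited log2 values were made by the authors with RMA, per the submitters' processing notes, and its equal distributions hide a change common to all transcripts. The sources used here do not give its version or the genome build of the probes.

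Of 41345 rows, 23521 had 1 gene symbol. The brightest such row stood for each of 22180 genes, and genes with a mean under the 25th percentile of these rows (5.02) were left out, leaving 16724. DKO was compared with control in R 4.3.3 by limma 3.58.1 (two-sided lmFit and eBayes fit, no covariate). A rise or fall was called at an adjusted p under 0.05 (Benjamini-Hochberg over all genes tested). Having 3 arrays per group limits the precision: an exact permutation test cannot go below p = 0.1, which 8 of the 10 cascade genes reached. On data simulated for this comparison over 16724 genes, 63.6% of genes changed by 0.5 were recovered, 94.6% at 1 and 99.1% at 1.5. These shares are over all genes, whose median residual SD was 0.0951. That of the cascade genes was 0.166, and recovery at this larger spread was not simulated. Changes under 0.5, the range of most cascade genes, were not simulated either.

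The members and gene lists were chosen with earlier results of these data known. Named genes were the members, Lats1, Lats2, up to 3 genes with the smallest p per list and the 5 most like Eomes. Sox9, Emx1, Sox1, Emx2, Lhx2, Nes, Xist, Kdm5d and Btg2 were named outside this rule. Genes of a list without a 1-symbol row were not analysed here.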

Additional observations from a re-analysis of the deposited data

How the results depend on the processing

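All 10 cascade genes but Nhlh2 kept their sign under each of the 15 other settings tried (14 for Neurod1, which the 50th percentile filter removed). The filters, the variance options, the replicate block and averaging the rows of a gene could not move these estimates. Only the remaining settings could have changed a sign. Nhlh2 turned to -0.0245 without DKO 2, to -0.0032 without control 3 (0.0967 at most, without DKO 3) and to -0.0070 with sex as a covariate. The number of cascade genes that fell was 2 with the filter at the 50th percentile (Neurog1 at an adjusted p of 0.0421 and Nhlh1 at 0.0347) and 2 with a trended variance (0.0334 and 0.0227). Leaving out each array in turn gave 0 to 1 cascade genes that fell and a median between -0.43 and -0.32. Over all genes, 134 fell with the 50th percentile filter, 162 with a trended variance and 26 with sex as a covariate, a setting added after seeing the data. Leaving out 1 array gave 121 to 260 rises and 11 to 54 falls, with fewer samples in each fit, and the cause of the other shifts was not tested. With the replicate number as a block 24 genes fell, 176 rose and 0 cascade genes passed. Same-numbered arrays deviated together with correlations of -0.10, 0.21 and 0.15, and not every array correlated best with its own number, so the numbers were not taken as pairs. Subtracting array medians moved the cascade median to -0.37 and that of all genes to -0.01. No detection calls were at hand, so whether background limits the dim rows, such as that of Neurod1, was not tested.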

Other observations

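A further row of the array carries the symbols Neurod1 and Cerkl together, and was left out of the comparison for that reason. It was brighter than the row of Neurod1 alone, at 8.11, 8.12 and 8.03 in the DKO arrays against 8.39, 8.31 and 8.65 in the control arrays. The groups did not overlap and the difference was -0.36, which cannot be assigned to either gene.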
